A study of Mus musculus with 22 samples.

Results

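Autophagy encloses cytoplasm in a membrane vesicle, the autophagosome, and delivers it to the lysosome for breakdown. A kinase complex around ULK1 starts the process, a lipid kinase complex marks the membrane, ATG9 vesicles and lipid transfer proteins let it grow, and a pair of ubiquitin-like conjugation systems attaches proteins of the ATG8 family to it, where cargo receptors bind. In mice, autophagy is switched on soon after fertilization, and embryos that lack both maternal and zygotic Atg5 stop before the blastocyst stage. The 38 autophagy genes described here are those whose gene symbol equalled a member of the list, out of 55335 genes in the table, 1 gene each. They were placed by role into the initiation kinase complex, the PI3K complex with its regulators, ATG9 with lipid transfer, the conjugation enzymes, the ATG4 proteases, the ATG8 proteins and the cargo receptors.

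RNA-seq was used to ask how transcription changes in early embryos when the histone variant H2A.Z is depleted. Zygotes came from superovulated B6D2F1 females of 8 weeks mated with B6D2F1 males. For the knockdown (KD), a mix of 3 siRNA pairs against H2A.Z was injected, about 10 pL at 20 µM, at 20 to 22 h after hCG, and the treatment of the control embryos of these libraries is not stated (noninjected embryos were controls of qPCR in the paper). Embryos were cultured in G1-plus medium and harvested at 43 to 44 h after hCG as 2-cell embryos, at 78 h as morulae and at 94 h as blastocysts. The paper reports that far fewer KD than control embryos formed blastocysts, with arrest at the morula stage. How the KD embryos pooled at 94 h were picked is not stated. The 22 Smart-seq2 libraries, which carry no strand information, pooled 15 embryos each, so a value is an average over embryos and over the cell types of the blastocyst. Control embryos gave 4 libraries at each stage, and KD embryos gave 3 for 2-cell embryos, 3 for morulae and 4 for blastocysts. The paper says in general that experiments were repeated, but not which of these libraries came from separate collections, so p-values measure only the spread between these libraries, which may be technical.

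Levels are FPKM, fragments scaled by transcript length and by the mapped total. The number of reads is unknown. A relative depth, read from the most frequent low value of FPKM times length among single-exon genes, was 18.0 to 27.3 in 2-cell control, 20.8 to 27.1 in 2-cell KD, 20.8 to 28.7 in morula control, 20.0 to 28.0 in morula KD, 14.8 to 22.1 in blastocyst control and 17.2 to 21.2 in blastocyst KD libraries. Libraries are named by group and replicate number, and values are listed in the order of these numbers: 1, 2, 4 and 5 for 2-cell control, 1, 2 and 4 for 2-cell KD, 1, 2, 7 and 8 for morula control, 1, 2 and 6 for morula KD, and 1, 4, 5 and 6 for both blastocyst groups.

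Stage labels were checked with marker genes. Maternal oocyte genes (9 genes) summed to 785 to 1034 FPKM in 2-cell control libraries and to at most 23.0 in morula control libraries, and the 2-cell genes (6 genes) to 248 to 367 and to at most 19.8. Trophectoderm genes (9 genes) summed to 1004, 1480.4, 1315 and 988 FPKM in blastocyst control libraries and to 96.4 to 136 in morula control libraries. Genes of cumulus and granulosa cells (8 genes) summed to at most 3.41 FPKM at the 2-cell stage, nearly all Tnfaip6, and to at most 0.168 later, with Ptx3 and Fshr at 0 in all libraries. Sperm genes (3 genes) summed to at most 1.24 FPKM, most of it Prm2, with Tnp1 at 0 in all blastocyst libraries.

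The targets were read first. H2afz (ENSMUSG00000037894.13, chr3:137864487-137866922, plus strand) measured 1244, 1237, 905 and 1178 FPKM in control and 415, 139 and 112 in KD libraries at the 2-cell stage, 1158, 1336, 1511 and 1421 FPKM in control and 30.3, 25.7 and 29.0 in KD libraries at the morula stage and 2656, 2431, 1945 and 2055 FPKM in control and 64.2, 67.2, 53.2 and 57.6 in KD libraries at the blastocyst stage. KD libraries lay below all control libraries at each stage, and KD 1 was the highest KD library of 2-cell embryos. On the log2 scale (log2FC, log2 fold change), H2afz fell in morulae (log2FC -5.41, SE 0.17, limma adjusted p = 9.71e-08) and blastocysts (log2FC -5.19, SE 0.20, limma adjusted p = 3.63e-08), and in 2-cell embryos the difference did not pass over all genes (log2FC -2.53, SE 0.38, limma adjusted p = 0.543). It passed there without KD 1 (limma adjusted p = 0.000907) and in 1 fit over all 6 groups (0.000347), with 0.000347 to 0.861 over the alternatives. H2afv, the gene of the other H2A.Z protein, measured 111, 118, 96.8 and 113 FPKM in control and 97.6, 85.4 and 83.7 in KD libraries at the 2-cell stage, 97.3, 113, 100.0 and 92.5 FPKM in control and 12.9, 11.0 and 9.90 in KD libraries at the morula stage and 49.9, 62.0, 54.5 and 63.5 FPKM in control and 19.9, 16.9, 10.6 and 13.9 in KD libraries at the blastocyst stage. It fell in morulae (log2FC -2.93, SE 0.15, limma adjusted p = 2.93e-06) and blastocysts (log2FC -1.86, SE 0.22, limma adjusted p = 7.95e-05) and did not pass in 2-cell embryos (log2FC -0.23, SE 0.16, limma adjusted p = 0.840). For H2afz no library went against its label.

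In control 2-cell embryos the most abundant were Bnip3 at 299 ± 51.2 FPKM (mean ± SD, n = 4), Map1lc3b at 276 ± 132 and Gabarapl2 at 232 ± 12.3 (Bnip3 lay above Gabarapl2 in every library, and the SD of Map1lc3b overlapped with those of both). In control morulae Gabarapl2 (1759 ± 67.8) and Map1lc3b (1702 ± 639.6) did not differ beyond their spread, and Bnip3 (739.9 ± 143) lay below both. In control blastocysts Gabarapl2 (2612 ± 275) stood above Map1lc3b (791 ± 291) in every library, and Map1lc3b above Bnip3 (300.01 ± 13.5). At the low end, Ambra1, a regulator of the PI3K complex, stayed between 0.0992 and 0.631 FPKM in all 22 libraries, and Atg9b, the other ATG9 gene, between 0 and 0.271. Wipi1 and Ulk2 reached 1 FPKM in 3 and 7 libraries. Members at or above 1 FPKM numbered 28 to 31 in 2-cell libraries and 30 to 34 in morula and blastocyst libraries, and Atg9b and Gabarapl1 were the members listed at 0 anywhere, in 3 libraries each.

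Summed over the 38 members, FPKM were 1212, 1216, 1335 and 1724 in 2-cell control, 4358, 5731, 5423 and 5396 in morula control and 4169, 4242, 4425 and 4117 in blastocyst control libraries. The KD libraries gave 1449.5, 1301 and 1197 at the 2-cell stage, 5416, 5636 and 5451 at the morula stage and 4350.3, 4847, 4175 and 3956 at the blastocyst stage, within or near the range of the controls. Most of each sum was Map1lc3b, Gabarapl2 and Bnip3. Without these 3 genes, blastocyst control libraries summed to 387, 540.5, 669 and 545 FPKM and blastocyst KD libraries to 866, 704, 1119.7 and 887, so each KD library lay above all control libraries. Much of this gap lay in Map1lc3a (mean 30.8 FPKM in control and 141 in KD), Sqstm1 (75.1 and 152), Atg4b (67.5 and 130) and Atg101 (24.5 and 68.9). At both earlier stages the sums without the 3 genes overlapped between the groups. These sums are descriptions and were not tested.

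Differences were tested with limma on log2(FPKM + 1), a scale that understates the change of low genes, over the genes that reached 1 FPKM in 3 or more of the libraries compared. A gene passed at an adjusted p under 0.05 over all genes tested, and a DEG also had an absolute log2FC above 1. In 2-cell embryos 29 members were tested between KD and control, and 0 passed in either direction, beside 0% of 12160 genes (limma, lowest adjusted p = 0.543). At an unadjusted p under 0.05 there were 701 genes and 0 members. The members' log2FC values lay between -0.53 (Pik3c3) and 0.27 (Ulk2), with a median of -0.06 beside 0.00 for all genes. The median SE of a log2FC was 0.21, so small differences were not detectable with these libraries. Even the target H2afz, with a log2FC of -2.53, did not pass here (limma adjusted p = 0.543). The 0 passing members therefore do not exclude large changes at this stage. The 9 members not tested were Ambra1, Atg9b, Atg2a, Wipi1, Atg7, Atg16l2, Atg4c, Gabarapl1 and Optn, all low at this stage.

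In morulae 33 members were tested between KD and control, of which 1 rose (Atg3) and 1 fell (Pik3c3), beside 4.23% and 9.04% of 10989 genes, and 0 were DEGs beside 3.52% (limma). An unadjusted p under 0.05 was reached by 7 members and 3352 genes. The median log2FC was 0.04 for members and 0.02 for all genes, with 18 members above 0 and 15 below. With FPKM as deposited, 281 genes passed as higher and 1553 as lower, against 465 and 993 with scaling, and 0 members rose and 3 fell. Ulk2, Uvrag, Ambra1, Atg9b and Wipi1 were not tested.

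Blastocysts differed more. Of 34 members tested between KD and control, 11 rose, beside 16.7% of 11828 genes, and 2 fell, beside 19.8%, and 7 were DEGs, beside 13.7% (limma). The genes that rose were Map1lc3a, Atg101, Rb1cc1, Atg9a, Atg14, Sqstm1, Atg4b, Ulk1, Uvrag, Wipi2 and Atg12, and those that fell were Atg4a and Atg10. The median log2FC of the members was 0.39, beside 0.01 for all genes, and 25 of 34 members lay above 0, beside 50.3% of all genes. An unadjusted p under 0.05 was reached by 19 members and 5439 genes. In these pooled embryos, fewer cells of a type, less RNA per cell and a delay or arrest of development cannot be told apart. Ulk2, Ambra1, Atg9b and Wipi1 were not tested. Each call was recomputed under alternatives, among them another pseudocount, no filter on low FPKM (no filter), FPKM as deposited, 1 fit over all 6 groups, the replicate number as a block and each library left out in turn, a value after limma or an alternative is its adjusted p, and ranges in all span the adjusted p of all alternatives of a result. Of the 13 calls, 7 passed in every alternative run, namely Atg101, Rb1cc1, Atg14, Atg9a, Atg4a, Atg4b and Map1lc3a. In an alternative added after the data were seen, which kept replicate numbers 4 to 6 only and so left out the libraries numbered 1, 9 of the 13 calls were kept (limma adjusted p 0.000531 to 0.0424), and those of Ulk1, Uvrag, Wipi2 and Atg12 ended (0.0894 to 0.164).

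**Figure D1:**
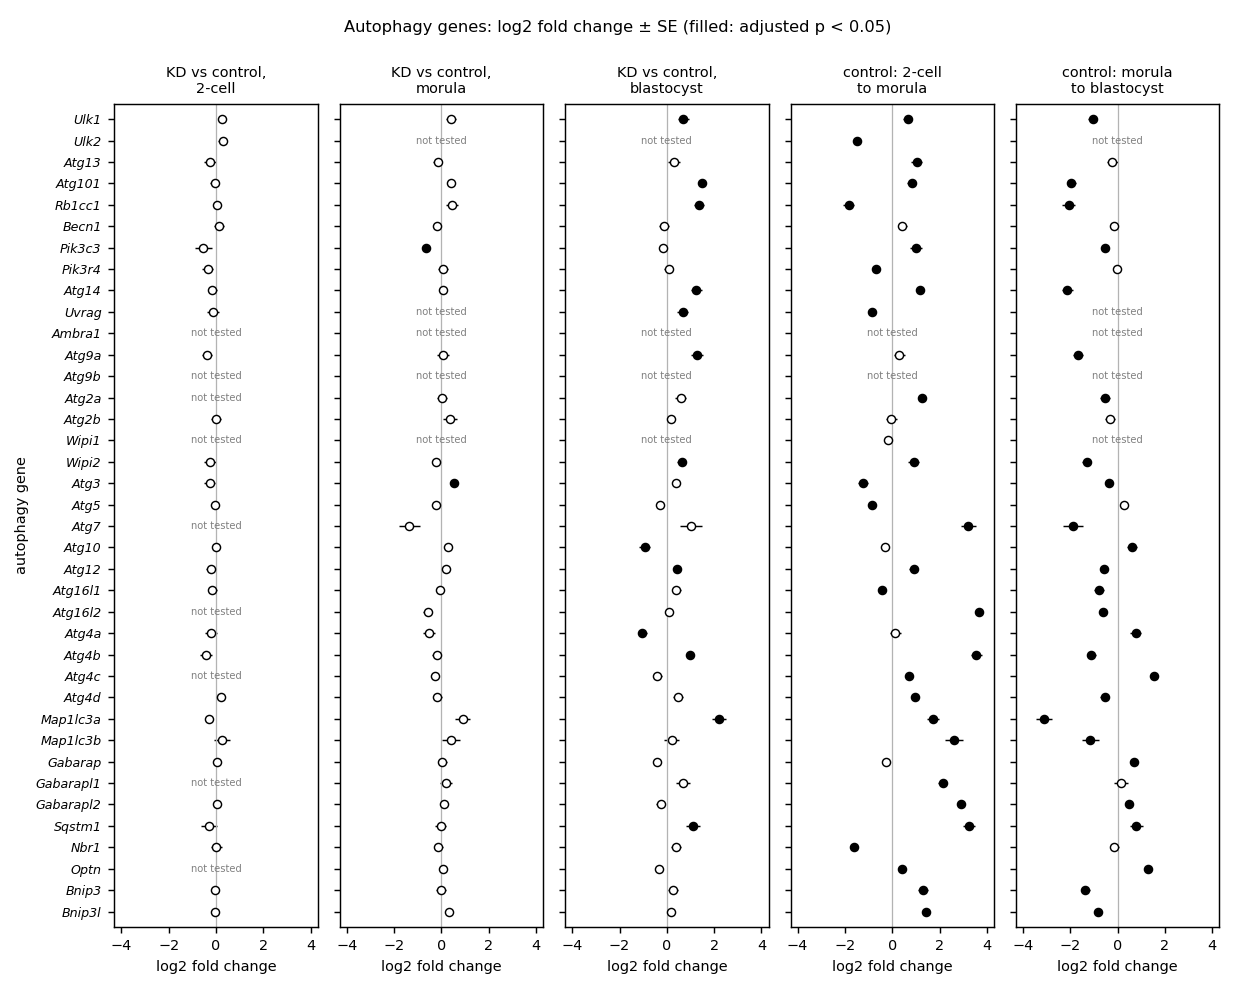
Log2 fold change (x axis, on the log2(FPKM + 1) scale) with its SE as a horizontal bar for the 38 autophagy genes (y axis) in the 3 KD comparisons and the 2 comparisons of control embryos between stages. Filled points passed at an adjusted p under 0.05 with limma: between KD and control 0 at the 2-cell stage, 2 at the morula stage and 13 at the blastocyst stage, and genes below the filter are marked as not tested.

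Between stages, control embryos gave the background of normal development. From 2-cell embryos to morulae 36 members were tested, and 21 rose, beside 43% of 13655 genes, while 8 fell, beside 40.3%, and 17 were DEGs, beside 62.2% (limma). The members' median log2FC was 0.77, and that of all genes 0.10. From morulae to blastocysts 33 members were tested, and 7 rose, beside 27.6% of 11849 genes, while 19 fell, beside 28.8%, and 13 were DEGs, beside 26.2%. The members' median was -0.55 and that of all genes -0.03. The KD comparison in blastocysts and this stage comparison share the control blastocyst libraries, so their fold changes are not independent and are given side by side only. Of the 11 members that rose in KD blastocysts, 9 had a KD mean there between the control means of blastocysts and morulae, and those of Uvrag and Sqstm1 lay above both. The KD means of Atg4a and Atg10, which fell, lay below both. The 11 that rose were picked for lying above control blastocysts, and 9 of them fell in controls from morula to blastocyst. No share over all genes is given beside the 9 means that lay between, so that count is a description only.

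A limma fit over both later stages tested the difference of the 2 KD effects, blastocyst minus morula. Of 34 members tested, 7 passed, beside 11.7% of 12727 genes, with a positive difference for Atg101, Atg4b, Atg14, Wipi2, Atg9a and Atg7 and a negative one for Atg10. An unadjusted p under 0.05 was reached by 13 members and 3480 genes. The members' median difference was 0.33 and that of all genes -0.01. The differences of Atg101 and Atg4b passed in each of 18 alternatives.

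The initiation kinase complex holds the kinase ULK1 or ULK2, the scaffold FIP200 (Rb1cc1), ATG13 and its partner ATG101. In KD blastocysts 3 of its 4 tested members rose and 0 fell, beside 16.7% and 19.8% of all genes, with a median log2FC of 1.04. Atg101 (ENSMUSG00000037204.7, chr15:101284272-101290945, plus strand) measured 42.4, 37.3, 63.1 and 62.6 FPKM in control and 42.4, 41.8 and 54.0 in KD 2-cell embryos. Its morula values were 115, 106, 73.1 and 74.5 FPKM in control and 111, 119 and 99.1 in KD libraries. In blastocysts Atg101 stood at 16.0, 28.3, 27.1 and 26.4 FPKM in control and 60.4, 54.8, 79.1 and 81.3 in KD libraries. All KD blastocyst libraries lay above all control blastocyst libraries, of which control 1 was the lowest, and the groups overlapped at both earlier stages.

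Atg101 rose in KD blastocysts (log2FC 1.48, SE 0.18, limma adjusted p = 9.5e-05), and leaving out control 1 kept the call, with log2FC values of 1.34 to 1.55 over all alternatives. In morulae its difference did not pass (log2FC 0.40, SE 0.16, limma adjusted p = 0.131). The KD effect was larger in blastocysts than in morulae (difference 1.04, SE 0.24, limma adjusted p = 0.0105). In control embryos Atg101 rose to the morula (log2FC 0.83, limma adjusted p = 0.00131) and fell to the blastocyst (log2FC -1.96, limma adjusted p = 3.97e-06).

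Rb1cc1 (ENSMUSG00000025907.14, chr1:6206197-6276648, plus strand) was highest at the 2-cell stage, at 81.7, 89.0, 94.0 and 73.8 FPKM in control and 85.0, 75.6 and 88.4 in KD libraries. Morula levels of Rb1cc1 were 31.5, 30.4, 14.3 and 19.4 FPKM in control and 25.0, 38.9 and 24.7 in KD libraries. In blastocysts Rb1cc1 measured 2.84, 6.87, 4.59 and 6.47 FPKM in control and 12.1, 12.4, 19.2 and 14.7 in KD libraries. Control levels did not overlap between stages, and each KD blastocyst library lay above the highest control blastocyst library. Rb1cc1 fell in control embryos from the 2-cell stage to the morula (log2FC -1.85, limma adjusted p = 6.05e-06) and again to the blastocyst (log2FC -2.07, limma adjusted p = 3.58e-05). It rose in KD blastocysts (log2FC 1.37, SE 0.21, limma adjusted p = 0.000495) and did not pass in KD morulae (log2FC 0.45, SE 0.26, limma adjusted p = 0.265). The difference of the effects did not pass either (difference 0.88, limma adjusted p = 0.111), except without morula control 7 (limma 0.0453), at 0.0453 to 0.275 in all.

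Ulk1 encodes the kinase itself. Its values in the blastocyst libraries are given here though the naming rule did not ask for them, a choice made after they were seen. In blastocysts Ulk1 measured 4.95, 6.26, 6.67 and 6.76 FPKM in control and 10.5, 7.26, 18.7 and 8.41 in KD libraries, and KD 5 stood apart from the other KD libraries. All KD values lay above all control values by a small margin, and Ulk1 rose (log2FC 0.70, SE 0.22, limma adjusted p = 0.0264). Leaving out control 1, control 4, KD 1 or KD 5 (limma 0.0556 to 0.0611) ended the call, as did no filter (0.0899), FPKM as deposited (0.0516) and numbers 4 to 6 only (0.103), and the adjusted p was 0.0110 to 0.103 in all. In control embryos Ulk1 rose from 7.94 ± 0.239 FPKM at the 2-cell stage to 13.8 ± 5.71 in morulae (SD, n = 4; log2FC 0.65, limma adjusted p = 0.00759) and fell to the blastocyst (log2FC -1.06, limma adjusted p = 0.000634). In KD morulae it passed only without control 1 (limma 0.0278), at 0.0278 to 0.533 in all. Ulk2, the related kinase, measured 2.65, 2.75, 3.78 and 3.12 FPKM in 2-cell control and 3.29, 4.29 and 3.67 in 2-cell KD libraries. It fell to 0.279, 0.430, 0.423 and 0.623 FPKM in control morulae (log2FC -1.47, limma adjusted p = 8.69e-07), where the filter let it in through the 2-cell libraries alone. Ulk2 lay at 0.352 to 0.541 FPKM in KD morulae, 0.235 to 0.797 in control and 0.395 to 0.737 in KD blastocysts. As these values were below 1 FPKM, no later comparison tested it. Atg13 rose in control embryos from the 2-cell stage to the morula (log2FC 1.03, limma adjusted p = 0.00112) and did not pass in any KD comparison, with limma adjusted p of 0.883, 0.557 and 0.388 in order of stage.

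The class III PI3K complex makes the lipid PI3P on the growing membrane, with the kinase VPS34 (Pik3c3), its partner VPS15 (Pik3r4), Beclin 1 (Becn1) and either ATG14, for autophagosome formation, or UVRAG. In KD blastocysts 2 of its 5 tested members rose and 0 fell, beside 16.7% and 19.8% of all genes, with a median log2FC of 0.07. Atg14 (ENSMUSG00000037526.7, chr14:47540893-47570649, minus strand) measured 21.2, 18.8, 30.9 and 23.4 FPKM in control and 22.2, 19.0 and 18.4 in KD 2-cell embryos. In morulae the values of Atg14 were 74.8, 55.7, 44.6 and 46.5 FPKM in control and 54.5, 53.4 and 49.2 in KD libraries. Blastocyst libraries held 6.49, 13.2, 17.8 and 14.9 FPKM in control and 25.0, 25.8, 44.8 and 30.1 in KD libraries of it. The blastocyst groups did not overlap, whereas the morula groups did, and control 1 was again the lowest control blastocyst library.

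Atg14 rose in KD blastocysts (log2FC 1.25, SE 0.24, limma adjusted p = 0.00165) and did not pass in KD morulae (log2FC 0.07, SE 0.15, limma adjusted p = 0.787). The difference of the effects passed (difference 1.14, limma adjusted p = 0.0223), and it ended without morula KD 1 (limma 0.0503) and with no filter (0.0785), at 0.0107 to 0.0785 in all. In control embryos Atg14 rose to the morula (log2FC 1.18, limma adjusted p = 3.38e-05) and fell to the blastocyst (log2FC -2.13, limma adjusted p = 1.17e-05).

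Pik3c3 was the member that fell in KD morulae. It measured 8.41, 6.47, 6.46 and 6.21 FPKM in control and 3.94, 4.03 and 2.87 in KD morulae, with no overlap, and control 1 was the highest (log2FC -0.67, SE 0.15, limma adjusted p = 0.0194). Leaving out KD 1 or KD 6 (limma 0.0577 to 0.0586) ended the call, as did 1 fit over all 6 groups (0.0997) and the replicate block (0.103), with an adjusted p of 0.0107 to 0.103 in all. At the 2-cell stage Pik3c3 stood at 1.41, 2.08, 4.52 and 4.69 FPKM in control and 0.686, 1.98 and 2.55 in KD libraries, and controls 4 and 5 were higher than controls 1 and 2. In blastocysts its values were 3.73, 5.02, 5.56 and 4.76 FPKM in control and 4.40, 3.25, 5.08 and 3.90 in KD libraries, with overlap and no pass (log2FC -0.16, SE 0.16, limma adjusted p = 0.487). The effects in blastocysts and morulae were not shown to differ (difference 0.49, limma adjusted p = 0.134). In control embryos Pik3c3 rose to the morula (log2FC 1.00, limma adjusted p = 0.00189) and fell to the blastocyst (log2FC -0.53, limma adjusted p = 0.00779), the latter not in 1 fit over all 6 groups (0.122, with 0.00389 to 0.122 in all).

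Uvrag, whose values were also looked at outside the naming rule after they were seen, measured 0.788, 1.68, 0.330 and 1.76 FPKM in control and 2.13, 2.00, 1.77 and 3.32 in KD blastocysts. The highest control and the lowest KD library differed by under 0.1 FPKM, and the rise in KD blastocysts was near the threshold (log2FC 0.67, SE 0.24, limma adjusted p = 0.0483). It ended without control 1, control 5, KD 1, KD 4 or KD 6 (limma 0.0682 to 0.133) and with a pseudocount of 0.1 (0.0633), no filter (0.169), FPKM as deposited (0.0549), 1 fit over all 6 groups (0.0624), the range of numbers as a batch (0.0536) and numbers 4 to 6 only (0.148), at 0.0140 to 0.169 in all. Control embryos lost Uvrag from the 2-cell stage to the morula (log2FC -0.85, limma adjusted p = 0.000411), a comparison in which it reached 1 FPKM only in 2-cell libraries. Becn1 stayed between 8.93 and 18.9 FPKM in all libraries and did not pass in any comparison, except from control 2-cell embryos to morulae with FPKM as deposited (limma 0.0344), without 2-cell 2 (0.0116) and without morula 1 (0.0466), at 0.0116 to 0.364 in all. Pik3r4, between 0.748 and 3.19 FPKM, fell from 2-cell embryos to morulae (log2FC -0.70, limma adjusted p = 0.00165), which the replicate block ended (0.0726, with 0.000288 to 0.0726 in all), and did not pass elsewhere. Ambra1 was below the filter at every stage and passed from control 2-cell embryos to morulae with no filter (limma 0.0279).

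ATG9 is the membrane protein of the vesicles that seed the autophagosome, ATG2 moves lipid into it, and WIPI proteins bind PI3P there. In KD blastocysts 2 of 4 tested members rose and 0 fell, beside 16.7% and 19.8% of all genes, with a median log2FC of 0.60. Atg9a (ENSMUSG00000033124.16, chr1:75180860-75192196, minus strand) measured 2.49, 2.73, 5.49 and 3.71 FPKM in control and 2.31, 2.76 and 1.90 in KD 2-cell embryos. Morulae gave 7.55, 4.96, 3.82 and 2.80 FPKM in control and 6.12, 4.06 and 3.29 in KD libraries. In blastocysts Atg9a stood at 0.394, 0.577, 1.03 and 1.23 FPKM in control and 3.40, 1.97, 6.44 and 2.60 in KD libraries. Every KD blastocyst library lay above every control, KD 5 was the highest, and 2 of the 4 controls were below 1 FPKM.

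Atg9a rose in KD blastocysts (log2FC 1.28, SE 0.24, limma adjusted p = 0.00171) and did not pass in KD morulae (log2FC 0.06, SE 0.24, limma adjusted p = 0.888). The difference of the effects passed (difference 1.17, limma adjusted p = 0.0458), but it ended without morula control 1, morula control 2, morula control 7, morula KD 2, morula KD 6, blastocyst control 1, blastocyst control 4, blastocyst KD 1 or blastocyst KD 5 (limma 0.0528 to 0.108) and with no filter (0.146), at 0.0237 to 0.146 in all. In control embryos Atg9a fell from the morula to the blastocyst (log2FC -1.69, limma adjusted p = 4.75e-05), and its change from the 2-cell stage to the morula did not pass (log2FC 0.30, limma adjusted p = 0.229), except with the replicate block (limma 0.00899), at 0.00899 to 0.536 in all. Atg9b, below the filter, passed at that step with no filter (limma 0.0128). The level of Atg9a is uncertain, as it shares exons with Gm29253.

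Wipi2 (ENSMUSG00000029578.15, chr5:142627698-142670588, plus strand) measured 29.6, 25.7, 49.2 and 55.0 FPKM in control and 25.1, 33.9 and 31.9 in KD 2-cell embryos. In morulae it held 69.0, 77.4, 64.3 and 79.4 FPKM in control and 52.6, 51.2 and 65.0 in KD libraries. Blastocysts showed 20.0, 36.4, 38.1 and 30.4 FPKM in control and 52.5, 39.7, 48.8 and 49.1 in KD libraries. KD 4 lay close above control 5 in blastocysts, and Wipi2 rose there (log2FC 0.63, SE 0.18, limma adjusted p = 0.0175), which no filter (0.0531) and numbers 4 to 6 only (0.0894) ended (adjusted p 0.0178 to 0.0894 in all). Its log2FC in KD morulae had the opposite sign and did not pass (log2FC -0.24, SE 0.17, limma adjusted p = 0.371), and the difference of the effects passed (difference 0.83, limma adjusted p = 0.0409). That difference ended without morula control 2, morula control 8, morula KD 1, morula KD 2, blastocyst control 1, blastocyst control 6, blastocyst KD 1 or blastocyst KD 6 (limma 0.0674 to 0.103) and with no filter (0.09996), at 0.0194 to 0.103 in all. Control embryos gained Wipi2 to the morula (log2FC 0.91, limma adjusted p = 0.00214) and lost it to the blastocyst (log2FC -1.31, limma adjusted p = 8.06e-05).

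Atg2a rose in control embryos from 0.659 ± 0.166 FPKM at the 2-cell stage to 3.20 ± 1.49 in morulae (SD, n = 4, log2FC 1.26, limma adjusted p = 3.62e-05). No 2-cell control library reached 1 FPKM, so the filter let Atg2a in through the morula libraries alone. It fell to the blastocyst (log2FC -0.55, limma adjusted p = 0.0455), a call that ended without morula 1, morula 7, blastocyst 1 or blastocyst 4 (limma 0.0668 to 0.126) and with no filter (0.128), FPKM as deposited (0.118) and 1 fit over all 6 groups (0.0503), at 0.0316 to 0.128 in all. In KD blastocysts its log2FC of 0.58 did not pass (limma adjusted p = 0.0650), except with 1 fit over all 6 groups (limma 0.0353) and with the replicate block (0.0300), at 0.0300 to 0.177 in all. Atg2b, between 0.65 and 3.2 FPKM, did not pass in any comparison, except in KD morulae with the replicate block (limma 0.0279), at 0.0279 to 0.890 in all. Wipi1, below 1.17 FPKM in all libraries, was tested only from 2-cell embryos to morulae and did not pass (log2FC -0.17, limma adjusted p = 0.374), but from control morulae to blastocysts it passed with no filter (limma 0.0316) and with 1 fit over all 6 groups (0.0194), at 0.0194 to 0.0316 in all.

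The conjugation enzymes work like those of ubiquitin: ATG7 activates ATG12 and the ATG8 proteins, ATG10 and ATG3 transfer them, and ATG12 joined to ATG5 binds ATG16L1. In KD blastocysts 1 of 7 tested members rose and 1 fell, beside 16.7% and 19.8% of all genes, with a median log2FC of 0.41. Atg10 (ENSMUSG00000021619.6, chr13:90935356-91223968, minus strand), the enzyme that passes ATG12 to ATG5, measured 2.44, 2.85, 3.12 and 3.71 FPKM in control and 2.99, 3.16 and 2.45 in KD 2-cell embryos. Values of Atg10 in morulae were 2.21, 1.95, 2.21 and 2.75 FPKM in control and 2.44, 3.11 and 2.62 in KD libraries. In blastocysts they were 6.13, 3.74, 4.65 and 3.03 FPKM in control and 1.72, 2.35, 1.00 and 1.98 in KD libraries. Every KD blastocyst library lay below every control, and control 1 was the highest.

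Atg10 fell in KD blastocysts (log2FC -0.94, SE 0.24, limma adjusted p = 0.0101), which no filter (0.0588) ended (adjusted p 0.000592 to 0.0588 in all), and did not pass in KD morulae (log2FC 0.27, SE 0.17, limma adjusted p = 0.301). The difference of the effects was negative (difference -1.23, limma adjusted p = 0.0170). It ended without morula KD 2 (limma 0.0500) and with no filter (0.0620), at 0.0106 to 0.0620 in all. From control 2-cell embryos to morulae Atg10 passed only with 1 fit over all 6 groups (limma 0.0488), at 0.0488 to 0.317 in all. Control embryos gained it from the morula to the blastocyst (log2FC 0.62, limma adjusted p = 0.0259), a call that ended without morula 1, morula 2, morula 7 or blastocyst 1 (limma 0.0504 to 0.0686) and with no filter (0.0812), at 0.00529 to 0.0812 in all.

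Atg3 (ENSMUSG00000022663.3, chr16:45158785-45188538, plus strand), which attaches ATG8 proteins to lipid, was the member that rose in KD morulae. It measured 40.6, 45.9, 75.8 and 79.6 FPKM in control and 45.3, 55.3 and 38.4 in KD 2-cell embryos, where controls 4 and 5 stood above controls 1 and 2. In morulae Atg3 held 26.4, 26.0, 21.1 and 23.0 FPKM in control and 33.5, 33.6 and 30.9 in KD libraries. In blastocysts the values were 17.1, 18.6, 20.3 and 21.9 FPKM in control and 27.8, 21.01, 29.2 and 26.3 in KD libraries. The morula groups did not overlap, with KD libraries within a narrow range above the controls, and the blastocyst groups overlapped at KD 4. Atg3 rose in KD morulae (log2FC 0.55, SE 0.14, limma adjusted p = 0.0263) and missed the threshold in KD blastocysts (log2FC 0.41, SE 0.15, limma adjusted p = 0.0548), except with no filter (limma 0.0484) and without KD 4 (0.0410), at 0.0410 to 0.165 in all, and the effects were not shown to differ (difference -0.18, limma adjusted p = 0.570). Leaving out control 7, control 8, KD 1, KD 2 or KD 6 (limma 0.0550 to 0.111) ended the morula call, as did FPKM as deposited (0.0530) and the replicate block (0.128), at 0.0176 to 0.128 in all. In control embryos Atg3 fell to the morula (log2FC -1.24, limma adjusted p = 8.31e-05) and to the blastocyst (log2FC -0.38, limma adjusted p = 0.0331), the latter not without morula 2, morula 8, blastocyst 1, blastocyst 4 or blastocyst 5 (limma 0.0512 to 0.0963) nor with FPKM as deposited (0.0970) and 1 fit over all 6 groups (0.151), at 0.0186 to 0.151 in all.

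Atg7, the activating enzyme, is given in full because it passed the difference of effects, a choice made after its values were seen. At the 2-cell stage it measured 0.813, 0.571, 0.724 and 2.46 FPKM in control and 1.00, 0.202 and 0.738 in KD libraries. In morulae Atg7 stood at 12.0, 17.8, 19.0 and 26.5 FPKM in control and 6.06, 2.21 and 13.8 in KD libraries. Blastocysts held 1.31, 3.97, 11.6 and 5.41 FPKM in control and 5.94, 5.75, 25.4 and 11.4 in KD libraries. The groups overlapped at each stage, with KD 2 the lowest morula library and KD 5 the highest KD blastocyst library. Neither KD comparison passed, with a log2FC of -1.35 in morulae (SE 0.46, limma adjusted p = 0.0787) and of 1.02 in blastocysts (SE 0.46, adjusted p = 0.0990). The former passed with FPKM as deposited (limma 0.0480), with the replicate block (5.78e-08), with the range of numbers as a batch (0.0344) and without KD 6 (0.0161), at 5.78e-08 to 0.2999 in all, and the latter with the replicate block (limma 0.00280), with the range of numbers as a batch (0.0448) and without control 5 (0.0243), at 0.00280 to 0.316 in all. Their difference passed at 2.34 (SE 0.73, limma adjusted p = 0.0474). It ended without morula control 2, morula control 7, morula control 8, morula KD 1, morula KD 2, blastocyst control 1, blastocyst control 4, blastocyst control 6, blastocyst KD 5 or blastocyst KD 6 (limma 0.0623 to 0.139) and with a pseudocount of 0.1 (0.0555) and no filter (0.188), at 0.0176 to 0.188 in all. In control embryos Atg7 rose to the morula (log2FC 3.22, limma adjusted p = 8.6e-07) and fell to the blastocyst (log2FC -1.88, limma adjusted p = 0.00195).

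Atg12, the ubiquitin-like protein joined to ATG5, measured 12.6, 15.1, 15.9 and 14.7 FPKM in control and 21.5, 20.6, 19.0 and 18.2 in KD blastocysts, values chosen after they were seen. The groups did not overlap, and Atg12 rose (log2FC 0.43, SE 0.16, limma adjusted p = 0.0485). The call ended without control 1, control 4, control 5, control 6, KD 1, KD 4 or KD 6 (limma 0.0682 to 0.114) and with 1 fit over all 6 groups (0.0651), the replicate block (0.0672) and numbers 4 to 6 only (0.164), with an adjusted p of 0.0289 to 0.164 in all. In control embryos it rose to the morula (log2FC 0.90, limma adjusted p = 0.000619) and fell to the blastocyst (log2FC -0.57, limma adjusted p = 0.00595). Atg5 lay between 21.2 and 57.9 FPKM in all libraries and fell from control 2-cell embryos to morulae (log2FC -0.85, limma adjusted p = 0.000179). KD libraries of Atg5 lay below all controls in morulae and in blastocysts, but neither difference passed, with log2FC values of -0.21 and -0.27 (limma adjusted p = 0.376 and 0.185). From control morulae to blastocysts it passed only with FPKM as deposited (limma 0.0330) and with 1 fit over all 6 groups (0.0169), at 0.0169 to 0.235 in all.

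Atg16l2, a relative of Atg16l1, had the highest log2FC of a member from control 2-cell embryos to morulae. The filter let it in through the morula libraries alone, so this rank is a description only. It measured 0.0419, 0.112, 0.116 and 0.271 FPKM in control and 0.344, 0.132 and 0.473 in KD 2-cell embryos, near 0 in all. Its morula values were 15.5, 15.3, 11.8 and 13.4 FPKM in control and 11.2, 5.69 and 8.49 in KD libraries. In blastocysts they were 7.77, 7.55, 11.6 and 10.3 FPKM in control and 9.42, 8.99, 13.1 and 8.57 in KD libraries. KD morulae lay below all control morulae, with no pass (log2FC -0.59, SE 0.20, limma adjusted p = 0.0778) except with FPKM as deposited (limma 0.0467), with 1 fit over all 6 groups (0.0499) and with the replicate block (0.0372), at 0.0372 to 0.287 in all, and the blastocyst groups overlapped (log2FC 0.10, SE 0.17, limma adjusted p = 0.678). In control embryos Atg16l2 rose to the morula (log2FC 3.68, limma adjusted p = 7.68e-10) and fell to the blastocyst (log2FC -0.64, limma adjusted p = 0.00546). Atg16l1 stood at 11.5 ± 2.44 (SD, n = 4) FPKM in 2-cell, 8.38 ± 2.03 in morula and 4.85 ± 1.64 in blastocyst control libraries. It fell at both steps (log2FC -0.42, limma adjusted p = 0.0372, then log2FC -0.78, limma adjusted p = 0.00585). The earlier call ended without 2-cell 2, 2-cell 4, 2-cell 5, morula 2, morula 7 or morula 8 (limma 0.0502 to 0.169) and with FPKM as deposited (0.0750) and the replicate block (0.374), at 0.00225 to 0.374 in all.

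ATG4 proteases trim ATG8 proteins before their attachment to lipid and free them afterwards. In KD blastocysts 1 of 4 rose and 1 fell, beside 16.7% and 19.8% of all genes, with a median log2FC of 0.03. Atg4b (ENSMUSG00000026280.17, chr1:93751500-93790610, plus strand) measured 8.38, 7.05, 17.7 and 11.4 FPKM in control and 6.71, 6.42 and 8.95 in KD 2-cell embryos. Morula libraries held 106, 158, 133 and 149 FPKM in control and 116, 99.7 and 110.2 in KD libraries. In blastocysts Atg4b stood at 51.2, 72.8, 88.2 and 57.7 FPKM in control and 149, 115, 135 and 122 in KD libraries. All KD blastocyst libraries lay above all controls, at the level of morulae.

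Atg4b rose in KD blastocysts (log2FC 0.97, SE 0.17, limma adjusted p = 0.00124) and did not pass in KD morulae (log2FC -0.19, SE 0.19, limma adjusted p = 0.533). The difference of the effects was 1.12 (SE 0.26, limma adjusted p = 0.0107). In control embryos Atg4b rose to the morula (log2FC 3.56, limma adjusted p = 6.07e-08) and fell to the blastocyst (log2FC -1.11, limma adjusted p = 0.000552).

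Atg4a (ENSMUSG00000079418.3, chrX:140956907-141164270, plus strand) measured 3.91, 3.51, 2.48 and 2.501 FPKM in control and 1.55, 2.15 and 3.71 in KD 2-cell embryos. In morulae Atg4a held 2.07, 3.57, 5.01 and 3.67 FPKM in control and 1.49, 1.65 and 2.65 in KD libraries. Blastocyst values were 5.93, 9.36, 6.83 and 6.39 FPKM in control and 3.13, 3.38, 2.48 and 2.58 in KD libraries. The highest KD blastocyst library lay below the lowest control, and the earlier groups overlapped. Atg4a fell in KD blastocysts (log2FC -1.04, SE 0.19, limma adjusted p = 0.00126), and in KD morulae its difference did not pass (log2FC -0.54, SE 0.26, limma adjusted p = 0.193), except without control 1 (limma 0.0411), at 0.0411 to 0.442 in all. The effects were not shown to differ (difference -0.52, limma adjusted p = 0.320). It rose in control embryos from the morula to the blastocyst (log2FC 0.77, limma adjusted p = 0.0128), which no filter (0.0530) ended (adjusted p 0.00508 to 0.0530 in all).

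Atg4c, by contrast with Atg4b, was highest in blastocysts. It measured 0.381, 0.413, 0.424 and 0.431 FPKM in control and 0.164, 0.335 and 0.179 in KD 2-cell embryos, 1.27, 1.25, 1.07 and 1.73 FPKM in control and 0.796, 0.976 and 0.766 in KD morulae and 4.43, 6.58, 8.03 and 5.63 FPKM in control and 4.55, 3.94, 3.96 and 4.85 in KD blastocysts. Control levels did not overlap between stages, and the rise from morula to blastocyst was the largest among members (log2FC 1.53, limma adjusted p = 1.63e-05). KD morulae lay below all control morulae and KD blastocysts overlapped with their controls, and neither difference passed (log2FC -0.27 and -0.40, limma adjusted p = 0.290 and 0.09999), except in blastocysts with 1 fit over all 6 groups (limma 0.0140), at 0.0140 to 0.225 in all. Atg4d rose in control embryos to the morula (log2FC 0.96, limma adjusted p = 0.000294) and fell to the blastocyst (log2FC -0.55, limma adjusted p = 0.0288). The fall ended without morula 1, morula 2, blastocyst 1 or blastocyst 6 (limma 0.0694 to 0.0789) and with no filter (0.0804) and FPKM as deposited (0.0830), at 0.00737 to 0.0830 in all. In KD blastocysts the log2FC of Atg4d was 0.46 and did not pass (limma adjusted p = 0.111), except without KD 4 (limma 0.0464), at 0.0464 to 0.267 in all.

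ATG8 proteins, the LC3 and GABARAP families, are the tags joined to lipid on the autophagosome. In KD blastocysts 1 of 5 rose and 0 fell, beside 16.7% and 19.8% of all genes, with a median log2FC of 0.20. Map1lc3a (ENSMUSG00000027602.9, chr2:155276297-155278073, plus strand) measured 68.1, 56.4, 80.0 and 86.6 FPKM in control and 52.4, 71.4 and 45.7 in KD 2-cell embryos. Morulae held 403, 311, 163 and 155 FPKM in control and 519, 480.3 and 271 in KD libraries, and at this stage the libraries numbered 1 and 2 stood above those with higher numbers in both groups. In blastocysts Map1lc3a stood at 12.9, 32.6, 39.0 and 38.9 FPKM in control and 159, 74.6, 186 and 144 in KD libraries. Each KD blastocyst library lay above all controls, and KD 4 was the lowest of them.

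Map1lc3a showed the largest rise of a member in KD blastocysts (log2FC 2.21, SE 0.31, limma adjusted p = 0.000273), with log2FC values of 1.78 to 2.46 over the alternatives. In KD morulae it did not pass (log2FC 0.90, SE 0.31, limma adjusted p = 0.0782), except with the replicate block (limma 0.0217), with the range of numbers as a batch (0.00339), without control 1 (0.0361) and without KD 6 (0.0469), at 0.00339 to 0.288 in all. The effects were not shown to differ (difference 1.26, SE 0.49, limma adjusted p = 0.102), except without blastocyst KD 4 (limma 0.0418), at 0.0418 to 0.299 in all. Control embryos gained Map1lc3a to the morula (log2FC 1.70, limma adjusted p = 4.86e-05) and then lost more of it than of any other member (log2FC -3.11, limma adjusted p = 1.13e-05).

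Map1lc3b measured 214, 224, 192 and 473 FPKM in control and 460.3, 237 and 236 in KD 2-cell embryos, with control 5 and KD 1 apart from the rest. Its morula values were 746, 2043, 2076 and 1943 FPKM in control and 1748, 1931 and 2079 in KD libraries, and control 1 lay far below. Blastocysts held 549.9, 1091, 990.2 and 532 FPKM in control and 910.1, 1508, 594 and 659.6 in KD libraries. Control and KD groups overlapped at each stage, and none of the 3 KD comparisons passed (limma adjusted p = 0.899, 0.480 and 0.673 in order of stage), except in morulae with the replicate block (limma 0.00926), at 0.00926 to 0.935 in all. In control embryos Map1lc3b rose to the morula (log2FC 2.60, limma adjusted p = 5.4e-05) and fell to the blastocyst (log2FC -1.16, limma adjusted p = 0.0174). The fall ended without morula 2, morula 8 or blastocyst 6 (limma 0.0506 to 0.0553) and with no filter (0.0989), at 0.000262 to 0.0989 in all.

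Gabarapl2 measured 241, 237, 214 and 235 FPKM in control and 254, 265 and 179.7 in KD 2-cell embryos. In morulae Gabarapl2 stood at 1822, 1809.9, 1684 and 1719 FPKM in control and 1717, 1834 and 1729 in KD libraries. Its blastocyst values were 2931, 2304, 2486 and 2729 FPKM in control and 2096, 2283, 2155 and 2089 in KD libraries. KD blastocysts lay just below the controls, with no pass (log2FC -0.26, SE 0.18, limma adjusted p = 0.264), and the groups overlapped earlier. In control embryos it rose to the morula (log2FC 2.91, limma adjusted p = 5.54e-09) and to the blastocyst (log2FC 0.48, limma adjusted p = 0.0214). The later rise ended without morula 7 or blastocyst 6 (limma 0.0522 to 0.0590) and with no filter (0.0515), at 0.000969 to 0.0590 in all.

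Gabarap measured 28.4, 32.0, 28.1 and 31.4 FPKM in control and 32.6, 33.9 and 23.2 in KD 2-cell embryos. Its values in morulae were 35.8, 26.9, 20.6 and 18.8 FPKM in control and 30.4, 21.1 and 19.8 in KD libraries. In blastocysts they were 38.3, 40.4, 42.8 and 52.1 FPKM in control and 28.9, 28.3, 38.9 and 33.7 in KD libraries. In control embryos it rose from the morula to the blastocyst (log2FC 0.69, limma adjusted p = 0.00523), and in KD blastocysts its log2FC of -0.40 missed the threshold (limma adjusted p = 0.0526), except with no filter (limma 0.0487), with 1 fit over all 6 groups (0.0404) and without KD 5 (0.0465), at 0.0404 to 0.159 in all. From control 2-cell embryos to morulae it passed only with 1 fit over all 6 groups (limma 0.0146), at 0.0146 to 0.590 in all. Gabarapl1 was listed at 0, 0, 0.0363 and 0.0850 FPKM in control and 0, 0.0144 and 0.0320 in KD 2-cell embryos. It reached 7.27, 3.02, 2.84 and 2.66 FPKM in control and 4.45, 3.26 and 4.14 in KD morulae and 2.11, 3.71, 5.92 and 7.32 FPKM in control and 7.55, 5.64, 13.5 and 5.40 in KD blastocysts. The groups overlapped, and the fold change in KD blastocysts did not pass (log2FC 0.67, SE 0.29, limma adjusted p = 0.0947), except without control 6 (limma 0.0431), at 0.0431 to 0.341 in all. The rise from control 2-cell embryos, near 0, to control morulae passed (log2FC 2.13, limma adjusted p = 7.83e-07). In that comparison Gabarapl1 reached 1 FPKM only in morula libraries, so the filter let it in through the group where it was high.

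Cargo receptors link what is to be degraded to ATG8 proteins: p62 (Sqstm1), NBR1 and optineurin (Optn) bind ubiquitinated cargo, and BNIP3 and NIX (Bnip3l) sit on mitochondria. In KD blastocysts 1 of 5 rose and 0 fell, beside 16.7% and 19.8% of all genes, with a median log2FC of 0.26. Sqstm1 (ENSMUSG00000015837.15, chr11:50199366-50210827, minus strand) measured 2.75, 1.10, 4.44 and 4.79 FPKM in control and 1.89, 1.62 and 3.02 in KD 2-cell embryos. In morulae it stood at 52.6, 30.0, 34.5 and 33.9 FPKM in control and 30.4, 25.5 and 46.4 in KD libraries. Blastocyst levels were 33.1, 66.9, 118 and 82.3 FPKM in control and 114, 114, 232 and 149 in KD libraries. The blastocyst groups overlapped, because control 5 lay above KD 1 and KD 4, and the highest value was that of KD 5.

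Sqstm1 rose in KD blastocysts (log2FC 1.09, SE 0.29, limma adjusted p = 0.0117), which no filter (0.0837) ended (adjusted p 0.00102 to 0.0837 in all), and did not pass in KD morulae (log2FC -0.03, SE 0.23, limma adjusted p = 0.941). The effects were not shown to differ (difference 1.08, limma adjusted p = 0.0969), except without blastocyst control 5 (limma 0.0328), at 0.0328 to 0.275 in all. In control embryos Sqstm1 rose to the morula (log2FC 3.25, limma adjusted p = 3.22e-07) and to the blastocyst (log2FC 0.78, limma adjusted p = 0.0309). The later rise ended without morula 2, morula 7, morula 8, blastocyst 4, blastocyst 5 or blastocyst 6 (limma 0.0512 to 0.0860) and with no filter (0.124), at 0.00109 to 0.124 in all.

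Nbr1 was high at the 2-cell stage, at 10.9, 14.2, 18.7 and 12.4 FPKM in control and 18.1, 13.0 and 10.0 in KD libraries. In morulae Nbr1 measured 5.34, 3.34, 3.71 and 3.25 FPKM in control and 3.66, 2.31 and 3.59 in KD libraries. Blastocysts held 2.38, 3.19, 5.20 and 4.17 FPKM in control and 3.65, 3.86, 8.63 and 4.94 in KD libraries. Control and KD groups overlapped at each stage, and the KD blastocyst difference did not pass (log2FC 0.38, SE 0.23, limma adjusted p = 0.206), while the fall from control 2-cell embryos to morulae was among the largest 3 of the members (log2FC -1.61, limma adjusted p = 2.73e-06). Optn was low at the 2-cell stage, at 0.703, 0.792, 0.581 and 0.656 FPKM in control and 1.61, 0.963 and 0.490 in KD libraries. It measured 1.25, 1.34, 1.04 and 1.49 FPKM in control and 1.18, 1.42 and 1.28 in KD morulae and 4.26, 5.08, 5.65 and 4.04 FPKM in control and 3.50, 3.02, 3.72 and 4.08 in KD blastocysts. Optn rose from control morulae to blastocysts (log2FC 1.26, limma adjusted p = 2.79e-05), and KD blastocysts overlapped with their controls at KD 6 (log2FC -0.32, SE 0.16, limma adjusted p = 0.146).

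Bnip3 measured 271, 269.6, 278 and 375 FPKM in control and 250.1, 282 and 304 in KD 2-cell embryos, with control 5 the highest. In morulae Bnip3 stood at 535, 748, 825 and 851 FPKM in control and 686, 669 and 641 in KD libraries. In blastocysts its values were 301, 307, 281 and 311 FPKM in control and 478, 352, 306 and 319 in KD libraries. The narrow range of the control blastocysts overlapped with the KD libraries, of which KD 1 was the highest, and no KD comparison passed (limma adjusted p = 0.989, 0.988 and 0.320). Bnip3l gave 38.7, 41.2, 53.7 and 56.6 FPKM in control and 44.2, 44.3 and 40.2 in KD 2-cell embryos, 148, 141, 115 and 112 FPKM in control and 149, 151 and 139 in KD morulae and 73.7, 72.2, 92.1 and 67.0 FPKM in control and 84.3, 82.4, 96.5 and 80.0 in KD blastocysts. The groups of Bnip3l overlapped at each stage as well (limma adjusted p = 0.960, 0.137 and 0.373). In control embryos both mitochondrial receptors rose to the morula (Bnip3, log2FC 1.29, limma adjusted p = 0.000141, and Bnip3l, log2FC 1.42, limma adjusted p = 2.76e-06) and fell to the blastocyst (log2FC -1.37 and -0.84, limma adjusted p = 0.000117 and 0.000472).

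**Figure D2:**
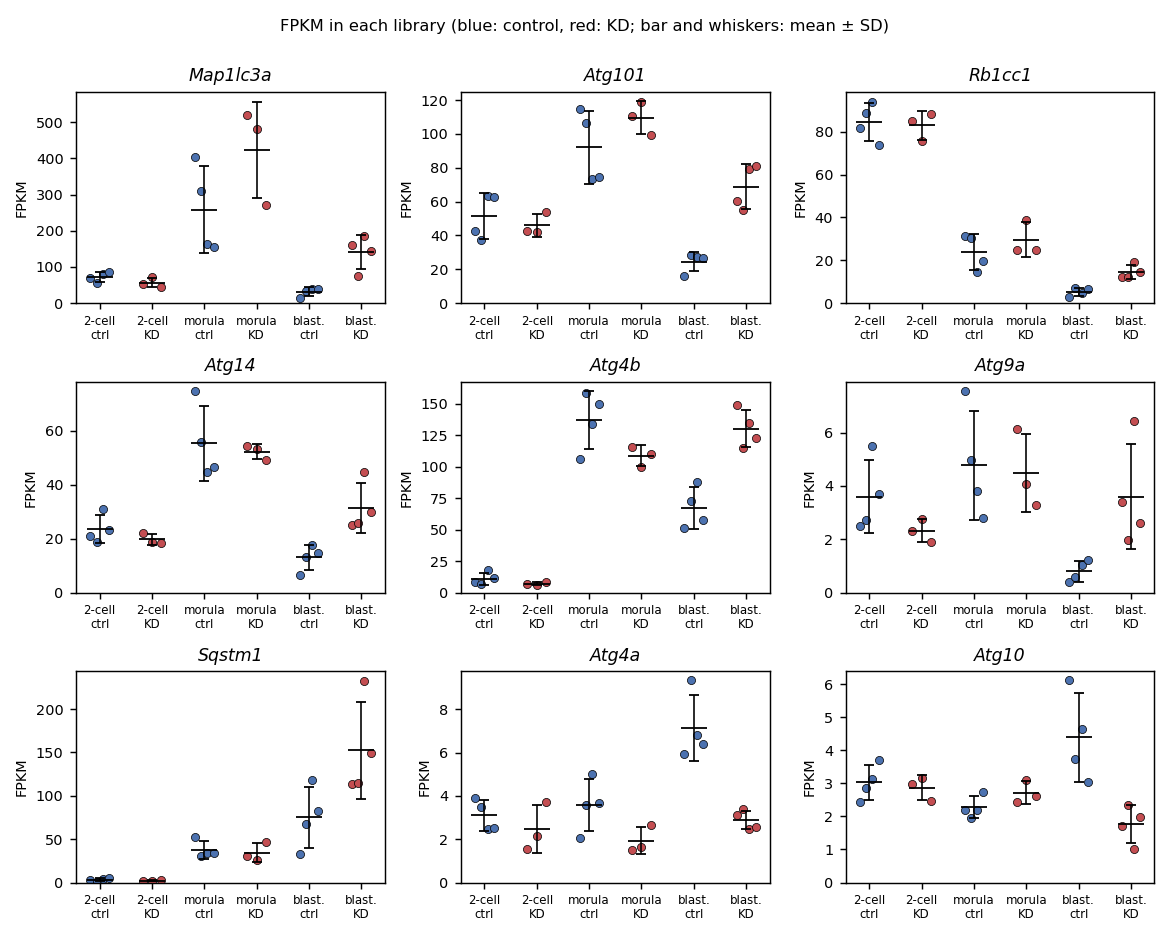
FPKM (y axis, linear from 0) in each of the 22 libraries by group (x axis) for 9 autophagy genes, with control libraries in blue, KD libraries in red and the mean ± SD of each group as bar and whiskers. In blastocysts all KD points of Map1lc3a, Atg101, Rb1cc1, Atg14, Atg4b and Atg9a lie above all control points, those of Atg4a and Atg10 lie below, and those of Sqstm1 overlap with them (74.6 to 186 FPKM in KD and 12.9 to 39.0 in control libraries for Map1lc3a).

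Across roles, the medians of the log2FC values from control 2-cell embryos to morulae ranged from -0.29 for the conjugation enzymes to 2.13 for the ATG8 genes. Of the ATG8 genes 4 rose and 0 fell, beside 43% and 40.3% of all genes. Their median is the value of Gabarapl1, which the filter let in through the morula libraries alone. From control morulae to blastocysts, the lowest median was -1.51, in the initiation complex, and the highest 0.14, in the ATG8 genes. In the initiation complex 0 rose and 3 fell, beside 27.6% and 28.8% of all genes.

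Genes around the core machinery were described from 103 genes in 5 lists. Between KD and control 0 of 76 tested passed in 2-cell embryos (limma), 1 rose and 5 fell of 73 in morulae, and 29 rose and 9 fell of 77 in blastocysts, beside the shares of all genes given above. For each related or marker list below, these shares were 4.23% higher and 9.04% lower in morulae and 16.7% and 19.8% in blastocysts. In blastocysts 7 of 14 other autophagosome factors rose and 0 fell (median log2FC 0.57), and in nutrient and energy sensing 10 of 25 rose and 5 fell (median 0.43).

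Nutrient and energy sensing sets how much autophagy is started, through mTORC1, which restrains it, and AMPK, which promotes it. In KD blastocysts Sesn2, an inhibitor of mTORC1 signalling, rose from 0.621 ± 0.380 to 4.25 ± 1.95 FPKM (mean ± SD, n = 4, log2FC 1.66, SE 0.23, limma adjusted p = 0.000236), and Prkab1, an AMPK subunit, rose from 29.6 ± 10.5 to 63.0 ± 17.0 (log2FC 1.10, SE 0.23, limma adjusted p = 0.00328). Rraga, a GTPase that brings mTORC1 to the lysosome, fell from 12.9 ± 2.36 to 4.06 ± 0.998 FPKM (log2FC -1.46, SE 0.17, limma adjusted p = 7.95e-05). Lamtor4, part of the anchor of that GTPase, fell from 62.9 ± 6.09 to 32.7 ± 4.94 (log2FC -0.92, SE 0.17, limma adjusted p = 0.00156). In KD morulae 0 of 25 rose and 3 fell, among them Nprl2, part of a complex that restrains mTORC1 (log2FC -0.99, SE 0.20, limma adjusted p = 0.0110), and Prkag1, an AMPK subunit (log2FC -0.86, SE 0.23, limma adjusted p = 0.0319). Nprl2 fell in KD blastocysts too (log2FC -0.78, SE 0.16, limma adjusted p = 0.00261). Lamtor4 likewise fell in KD morulae as well as in blastocysts (morulae, log2FC -0.62, SE 0.15, limma adjusted p = 0.0255). Its morula value is given outside the naming rule and without its alternatives. Leaving out KD 1 (limma 0.0514) ended the morula call of Nprl2, as did no filter (0.0637), at 0.00329 to 0.0637 in all. Leaving out control 2, control 7, control 8, KD 1 or KD 2 (limma 0.0554 to 0.129) ended that of Prkag1, as did no filter (0.150), at 0.00703 to 0.150 in all.

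Among transcription regulators of autophagy, 2 of 8 tested rose and 0 fell in KD blastocysts (median log2FC 0.36), and 0 of 7 passed in KD morulae (limma). Foxo3, a factor known to activate autophagy genes, rose from 2.21 ± 0.763 to 4.47 ± 1.16 FPKM (mean ± SD, n = 4, log2FC 0.78, SE 0.22, limma adjusted p = 0.0140). The call of Foxo3 ended with no filter (0.0579) and numbers 4 to 6 only (0.0869), at 0.0108 to 0.0869 in all. Of the other autophagosome factors, Ei24 rose from 4.33 ± 1.21 to 13.5 ± 4.10 FPKM in KD blastocysts (log2FC 1.43, SE 0.21, limma adjusted p = 0.000289). Trp53inp1, which binds ATG8 proteins and is a p53 target, rose in KD morulae (log2FC 1.09, SE 0.20, limma adjusted p = 0.00940), where it was the 1 of 12 that passed (not with no filter (0.0607), 0.000230 to 0.0607 in all), and in KD blastocysts (log2FC 1.08, SE 0.15, limma adjusted p = 0.000273).

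For fusion with the lysosome, 5 of 14 tested rose and 2 fell in KD blastocysts (median log2FC 0.15). Vamp8, the SNARE of the lysosomal side, fell from 234 ± 34.7 to 83.6 ± 31.1 FPKM (mean ± SD, n = 4, log2FC -1.55, SE 0.29, limma adjusted p = 0.00142), and Vps41, a subunit of the HOPS tether, fell less (log2FC -0.64, SE 0.17, limma adjusted p = 0.0123). Tbc1d15, which acts on the GTPase RAB7, rose (log2FC 0.80, SE 0.14, limma adjusted p = 0.00130), as did Vps11, another HOPS subunit (log2FC 0.73, SE 0.27, limma adjusted p = 0.0484). The call of Vps11 ended without control 1, control 4, control 6, KD 1, KD 5 or KD 6 (limma 0.0529 to 0.131) and with no filter (0.168), FPKM as deposited (0.0886) and numbers 4 to 6 only (0.159), at 0.0102 to 0.168 in all. In KD morulae 1 of 13 fell, Snap29, the SNARE partner on the autophagosome (log2FC -0.57, SE 0.15, limma adjusted p = 0.0326), a call that ended without control 2, control 7, control 8, KD 1, KD 2 or KD 6 (limma 0.0559 to 0.116) and with no filter (0.0557) and the replicate block (0.118), at 0.00542 to 0.118 in all.

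Of the other receptors and mitophagy genes, 5 of 16 tested rose and 2 fell in KD blastocysts (median log2FC 0.43). Tax1bp1, a receptor for ubiquitinated cargo, rose from 34.1 ± 5.43 to 81.5 ± 3.21 FPKM (mean ± SD, n = 4, log2FC 1.25, SE 0.15, limma adjusted p = 9.4e-05), and Ccpg1, a receptor for the endoplasmic reticulum, from 6.10 ± 1.25 to 14.2 ± 2.99 (log2FC 1.10, SE 0.17, limma adjusted p = 0.000431). Fundc1, a mitochondrial receptor, fell from 67.1 ± 7.49 to 28.5 ± 5.32 FPKM (log2FC -1.21, SE 0.19, limma adjusted p = 0.000461), and so did Rtn3, another receptor for the endoplasmic reticulum (log2FC -0.53, SE 0.17, limma adjusted p = 0.0314), whose call ended without control 4, control 5, control 6, KD 1 or KD 4 (limma 0.0572 to 0.0853) and with no filter (0.0589), FPKM as deposited (0.0605) and numbers 4 to 6 only (0.0751), at 0.0171 to 0.0853 in all. In KD morulae 1 of 16 fell, Calcoco2 (log2FC -0.54, SE 0.14, limma adjusted p = 0.0290), a call that ended without control 2, control 7, control 8, KD 1 or KD 2 (limma 0.0578 to 0.139) and with no filter (0.102) and 1 fit over all 6 groups (0.0901), at 0.00432 to 0.139 in all.

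Several marker lists moved with the KD. Targets of p53 (9 genes), a list chosen with results of these libraries known and so no independent evidence of its direction, summed to 149.7, 79.3, 92.2 and 89.7 FPKM in morula control and 265, 294 and 214 in morula KD libraries. In blastocysts they summed to 90.3, 126, 168 and 163 FPKM in control and 471, 344, 413 and 369 in KD libraries. They passed as higher in 6 of 9 in morulae, beside 4.23% of all genes, and 9 of 9 in blastocysts, beside 16.7%. In 2-cell embryos 0 of 7 tested passed (limma), and none was at 0 throughout morulae or blastocysts. Cdkn1a was the most abundant in KD blastocysts (141 ± 16.4 (SD, n = 4) FPKM, control 38.5 ± 16.8), and Sesn2 and Trp53inp1 belong to the related lists too.

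The trophectoderm list summed to 576, 738, 777 and 601 FPKM in KD blastocysts, below the control sums given with the stage labels. Of its 9 genes 1 rose (Krt7), beside 16.7% of all genes, and 3 fell (Gata2, Elf5 and Krt18), beside 19.8%. Krt18, its most abundant, measured 799 ± 149 FPKM (mean ± SD, n = 4) in control and 389.7 ± 55.6 in KD blastocysts, and no gene was at 0 throughout a blastocyst group. Inner cell mass genes (7 genes, Nanog the most abundant) summed to 212, 232, 299 and 185 FPKM in control and 152, 168, 296 and 211 in KD blastocysts, and 1 of 5 tested fell (Tdgf1) and 0 rose. In morulae they summed to 202, 206, 242 and 257 and 101, 102 and 162, and 1 of 5 rose (Klf2) and 1 fell (Nanog). Primitive endoderm genes (7 genes, Gata6 the most abundant, Foxa2 at 0) summed to 11.2, 12.4, 11.2 and 21.3 FPKM in control and 13.6, 10.9, 38.7 and 21.1 in KD blastocysts, and 0 of 2 tested passed (limma, 0 of 1 in morulae and in 2-cell embryos).

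The 2-cell genes summed to 14.1, 10.6, 5.20 and 6.65 FPKM in control and 20.8, 37.7, 19.1 and 61.5 in KD blastocysts, and Gm5662, the most abundant, and Zfp352 rose. The filter let low genes in through the group where they were high: in blastocysts Zfp352 reached 1 FPKM only in KD libraries, and Gata2 and Elf5 only in control libraries, as did Ooep in morulae. Autophagy genes were let in likewise. From control 2-cell embryos to morulae, Atg16l2, Gabarapl1, Atg2a, Atg4c and Optn reached 1 FPKM only in morulae, and Ulk2 and Uvrag only in 2-cell embryos. In the KD comparison of morulae, Atg4c reached it only in control libraries. All these are counted among the members tested. Maternal oocyte genes summed to 47.6, 37.2, 38.8 and 39.9 FPKM in control and 11.1, 10.2, 8.66 and 8.39 in KD blastocysts, where 1 of 3 tested rose (Padi6) and 1 fell (Ooep, 36.5 ± 5.17 to 2.30 ± 0.879 FPKM, the most abundant in controls). Ooep fell in KD morulae too, the 1 of 4 tested there. Among the 3 blood genes, Hbb-bs was at 0 in all libraries, Ptprc did not exceed 0.0195 FPKM, and Hba-a1 made up the sums. They were 3.63, 1.31, 1.16 and 2.65 FPKM in control and 7.77, 5.01 and 4.23 in KD morulae, and 0.612, 1.05, 1.66 and 1.79 in control and 2.48, 3.71, 3.22 and 2.09 in KD blastocysts. Hba-a1 rose in both (log2FC 1.20, SE 0.26, limma adjusted p = 0.0172, then log2FC 0.79, SE 0.21, limma adjusted p = 0.00985). The part of p53 targets and of cell type, stage and blood markers in the results for the autophagy genes was not tested.

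Promoter sequence was looked at because 11 members rose together in KD blastocysts. RefSeq promoters on GRCm38.p6, from 250 bases before to 50 bases after the start, were matched by symbol for 31 of the 38 members (34 promoters). Their GC content ranged from 40.0% to 78.0%, with a median of 60.9%, beside 52.7% for all 32851 promoters. The motifs were chosen after the data were seen and were searched on both strands. The E-box CACGTG, bound among others by TFEB and TFE3, was in 7.15% of all promoters and in those of 5 of 31 members (Atg3, Atg5, Atg7, Atg14 and Bnip3), of which Atg14 alone rose in KD blastocysts. The promoter matched for Atg7 (chr6:114670846-114671145, plus strand) lies inside the gene, whose annotated start is 114643097. That of Atg14 also lies inside the annotated gene (start 47570649, minus strand). The longer TCACGTGA (0.974% of all promoters, among members Atg3) and the antioxidant response core TGACNNNGC (12.4%, and Atg13, Map1lc3b and Ulk2) were in none of the 8 members with a promoter that rose. The GC box GGGCGG was in 35.7% of all promoters and in those of 21 of 31 members, among them 6 of those 8. Shown 5′ to 3′ on the gene's strand are the promoters of Atg14 (chr14:47568385-47568684, minus strand) and Atg3 (chr16:45158579-45158878, plus strand), the members with an E-box that passed in a KD comparison, with CACGTG in capitals, and that of Atg101 (chr15:101284051-101284350, plus strand), which rose and holds none of these 4 motifs. Binding was not measured.
Atg14: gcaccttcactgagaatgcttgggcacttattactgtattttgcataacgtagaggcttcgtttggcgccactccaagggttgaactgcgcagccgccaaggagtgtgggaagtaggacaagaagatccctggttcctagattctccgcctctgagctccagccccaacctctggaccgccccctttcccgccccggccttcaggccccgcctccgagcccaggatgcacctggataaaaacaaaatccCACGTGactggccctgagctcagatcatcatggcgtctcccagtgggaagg
Atg3: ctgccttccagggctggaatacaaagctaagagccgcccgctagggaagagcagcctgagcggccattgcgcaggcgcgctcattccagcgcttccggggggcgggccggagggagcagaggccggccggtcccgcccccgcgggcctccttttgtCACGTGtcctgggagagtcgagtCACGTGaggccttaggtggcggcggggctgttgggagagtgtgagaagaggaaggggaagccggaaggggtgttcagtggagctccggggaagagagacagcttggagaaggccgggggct
Atg101: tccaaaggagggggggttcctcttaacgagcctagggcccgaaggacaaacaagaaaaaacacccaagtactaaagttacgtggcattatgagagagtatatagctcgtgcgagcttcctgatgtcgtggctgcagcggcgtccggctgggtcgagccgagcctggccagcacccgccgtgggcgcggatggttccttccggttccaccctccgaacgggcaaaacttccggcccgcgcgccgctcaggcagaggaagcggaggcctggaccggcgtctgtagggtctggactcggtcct

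Some members share sequence with other genes, and how the authors' counting split such fragments is not stated, so their levels are uncertain. Stretches of 75 bases are shared by Map1lc3b with the pseudogenes Gm6055 (229 stretches), Gm12727 (65) and Gm6054 (61), and by Gabarapl2 with Gm3724 (148), Gm6051 (79) and Gm5829 (51). Gm3724 reached 1366 FPKM and Gm6055 834. Bnip3 shares them with Gm16439 (197) and Gm6532 (168), Bnip3l with Bnip3l-ps (652), and Atg4a with Atg4a-ps (1107), which did not exceed 0.62 FPKM. Uvrag shares them with Gm20826 (153) and Gm21244 (102) among others, and Gm20826 reached 3.21 FPKM, near the 3.32 of Uvrag itself. The target H2afz shares them with Tmcc1 (595, at most 261 FPKM) and others. With the pseudogenes added to the gene, an alternative chosen after the data were seen that took FPKM as deposited, the log2FC from control 2-cell embryos to morulae was 1.98 in place of 2.61 for Map1lc3b alone, also as deposited, and 3.01 in place of 2.92 for Gabarapl2. In KD blastocysts it was 0.27 in place of 0.19 for Map1lc3b and -0.38 in place of -0.27 for Gabarapl2.

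Exons of other members overlap those of neighbours on the opposite strand, and without strand their fragments cannot be told apart. Sqstm1 overlaps Mrnip over 580 bases (Mrnip at most 20.3 FPKM), Atg2b overlaps Gskip over 383 bases (at most 28.6), Atg4d overlaps Kri1 over 792 bases (at most 2.57), and Becn1 overlaps Cntd1 over 1297 bases (at most 1.06). Atg14 overlaps Gm49004 over 239 bases, and Rb1cc1 overlaps 4732440D04Rik over 313 bases, both low (at most 0.791 and 3.10 FPKM). On the same strand, Gm29253 overlaps Atg9a over 1072 bases and reached 10.5 FPKM, above the 7.55 FPKM that Atg9a itself reached.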

How the data were processed

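The authors deposited 1 table of FPKM per gene for 22 Smart-seq2 libraries, made from reads mapped to mm10 with STAR and StringTie 2.1.4, and their notes also list featureCounts 1.6.2 and DESeq2 1.30.1. All 22 columns belong to a sample. Counts were not used here, so differences were tested on log2(FPKM + 1) with limma 3.58.1 (limma-trend, R 4.3.3), after scaling each comparison by the median ratio of genes, and tables were made with Python 3.11.15, numpy 2.4.6, pandas 2.3.3 and matplotlib 3.10.9. Genes that reached 1 FPKM in 3 or more of the libraries compared were tested, with p adjusted over all of them (Benjamini-Hochberg), and an adjusted p under 0.05 passed. Of the 55335 genes, 13853 were at 0 in all libraries. The 5 comparisons were KD against control at each stage and control embryos between neighbouring stages, and a further fit tested whether the KD effect differed between morulae and blastocysts. Relative depth was read from the most frequent low value of FPKM times length over 13500 single-exon genes. It is a relative measure, and low values are coarse. Only 9.09% to 22.1% of low values per library lay close to whole multiples of that value, so the depth is uncertain.

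Genes described with every value were chosen by a rule: in each KD comparison the 6 passing members higher and the 6 lower with the smallest adjusted p, in each comparison of control stages the 3 largest rises and the 3 largest falls among those passing, the 5 ATG8 genes, the 5 cargo receptors, at most 6 members passing the difference of KD effects with the smallest adjusted p, and the 2 targets. Per related list and KD comparison, up to 2 passing genes with the largest fold changes in each direction were named, of which 1 is not reported here. Members and lists were chosen with earlier results of these data known. Lists were the 38 members, 5 lists of related genes, and marker lists of 2-cell genes, maternal oocyte genes, trophectoderm, inner cell mass, primitive endoderm, cumulus and granulosa cells, blood cells, sperm and p53 targets. Alternatives were a pseudocount of 0.1, no filter on low FPKM, FPKM as deposited, 1 fit over all 6 groups, the replicate number as a block, and each library left out in turn. After the data were seen, low against high replicate numbers as a batch, numbers 4 to 6 only in blastocysts, and sums of FPKM as deposited with pseudogenes were added.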

Additional observations from a re-analysis of the deposited data

Results flagged for a closer look

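In 6 of 100 combinations of gene and group (25 genes in the 4 groups of 4 libraries that were examined this way), 1 library lay far from the other 3, and chance alone gives about 1 in 20. Atg101 was lowest in blastocyst control 1, at 15.96 FPKM. Bnip3 (375.2) and Map1lc3b (473.2) were highest in 2-cell control 5. In morula control 1, Gabarapl1 (7.269) and Pik3c3 (8.41) were highest and Map1lc3b (746.4) lowest. What set these libraries apart was not tested. The KD effect differed between blastocysts and morulae by the limma test of the difference for 7 members, in log2 units: Atg101 1.0388, Atg4b 1.1205, Atg14 1.1365, Wipi2 0.8313, Atg9a 1.174, Atg7 2.3394 and Atg10 -1.2327. The differences of Atg14, Wipi2, Atg9a, Atg7 and Atg10 did not pass in all alternatives, as given with each gene.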

How the results depend on the processing

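No result changed direction past the threshold under any alternative. Counts of passing members moved as follows (limma). In KD morulae, 1 rose, with 0 under FPKM as deposited, 3 with the replicate block, 2 with the range of numbers as a batch and 0 to 3 with 1 library left out. There 1 fell, with 3 under FPKM as deposited, 2 with the replicate block, 2 with the batch and 0 to 2 with 1 library left out, and the 0 DEGs became 1, 1, 1 and 0 to 2. In KD blastocysts, 11 rose, with 7 under numbers 4 to 6 only and 8 to 11 with 1 library left out, and 2 fell, with 4 in 1 fit over all 6 groups and 2 to 3 with 1 library left out. From control morulae to blastocysts, 7 rose, with 3 under no filter and 4 to 6 with 1 library left out. For the difference of KD effects, 6 were positive (2 under no filter, 3 to 7 with 1 library left out), 1 negative (0 and 0 to 1) and 6 above 1 in size (2 and 2 to 7). Over all genes, 2-cell KD gave 15 higher and 18 lower in 1 fit over all 6 groups, and 0 to 3 lower with 1 library left out. Morula KD gave 129 higher and 283 lower with no filter, 281 and 1553 with FPKM as deposited, 777 higher with the batch, and 140 to 558 higher and 411 to 1186 lower with 1 library left out. With no filter, 8962 genes fell from control 2-cell embryos to morulae, and 398 differences of KD effects were positive, or 413 to 866 with 1 library left out. With FPKM as deposited and pseudogenes added together, the log2 fold change of Gabarapl2 was 3.01 from control 2-cell embryos to morulae and 0.62 from morulae to blastocysts, beside 2.92 and 0.57 for the gene alone as deposited. The median difference of KD effects over all genes was 0.11 with FPKM as deposited, beside -0.01 with scaling. Of the values under alternatives of the single results described as passing and of the targets, 1256 stayed on their side of the threshold, 174 no longer passed, 2 passed newly and 2 moved by more than the spread. For members that did not pass as reported, 43 further values passed, over 22 members, as given with each gene. The causes of these changes were not tested. Whether libraries with the same replicate number belong together is not stated. Their residuals correlated on average at 0.146 (0.015 to 0.214) in 2-cell embryos, 0.138 (0.094 to 0.181) in morulae and 0.083 (-0.111 to 0.354) in blastocysts, beside -0.049, -0.028 and -0.029 for other numbers. As not every pair was above 0.1, the replicate block is an alternative only. Depth limits low genes most, such as Atg9b and Ambra1.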
